A study of Mus musculus with 16 samples.

Results

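The 9 genes described here encode the core of calcineurin and NFAT signalling: the calcineurin subunits Ppp3ca, Ppp3cb and Ppp3r1, the calcineurin regulators Rcan1 and Rcan2, and the transcription factors Nfatc1, Nfatc2, Nfatc3 and Nfatc4. They were chosen by symbol from the 23970 symbols of an FPKM table (fragments per kilobase of transcript, scaled by the authors to the number of mapped fragments), and 9 of 9 were present. All of them passed the filter on low values (a mean of at least 0.5 FPKM), together with 11256 genes in all.

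The table came from RNA sequencing of quadriceps from 16 male C57BL/6NTac mice aged 16 weeks. The mice had received a control diet (CON, 10% of kcal from fat) or a high-fat diet (HFD, 60% of kcal from fat) for 10 weeks. In each diet, 4 mice were sampled without the test (CON-pre and HFD-pre) and 4 other mice 3 h after a single maximal treadmill test to exhaustion (CON-post and HFD-post). All 16 had been acclimatised to the treadmill, carried no allele or transgene that the labels name, and had fasted for 3 h before the time of the test. The exercised mice received water but no food until sampling. The methods give the mice sampled without the test an equal fast, and whether it covered the hours after the test is not stated, so exercise, fasting in those hours and the time of day cannot be told apart.

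Calcineurin is a phosphatase switched on by calcium and calmodulin, built from a catalytic and a regulatory subunit. It removes phosphate from NFAT proteins in the cytoplasm, which lets them enter the nucleus, and kinases such as GSK3, DYRK1A and casein kinase 1 send them back. The RCAN proteins bind calcineurin and can inhibit it, and Rcan1 is also known as a target of NFAT. In skeletal muscle the pathway follows nerve activity and is known for its role in the slow-fibre programme and in regeneration. The values here are transcript levels, which measure neither phosphatase activity nor the location of NFAT proteins.

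The quadriceps libraries carried the markers of skeletal muscle fibres. The 7 fibre markers (Acta1, Ckm, Myh4, Myh1, Ttn, Des and Tnnt3) summed to between 42370 and 57680 FPKM. The 8 lymphocyte markers, chosen because NFAT factors are best known from those cells, summed to between 0.143 and 1.39 FPKM, and 0 of 8 passed the filter. Depth is not known from FPKM, but the values of low genes gave a depth of 0.702 to 1.13 relative to 1 library of CON-pre. In whole muscle, fewer cells of a type and less RNA per cell cannot be told apart.

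Rcan1 is shown by sequence because it has 2 start sites in RefSeq (GRCm38.p6), 66.1 kb apart on the reverse strand of chromosome 16, and the deposited value is 1 number for both. The windows are the 250 bases before each start, printed 5′ to 3′ on the strand of the gene. The outer window is chr16:92466170-92466419 and the inner window, which lies inside the gene, is chr16:92400079-92400328. Capitals mark the NFAT core letters GGAAA, or TTTCC where the core is on the other strand.
Rcan1 outer start: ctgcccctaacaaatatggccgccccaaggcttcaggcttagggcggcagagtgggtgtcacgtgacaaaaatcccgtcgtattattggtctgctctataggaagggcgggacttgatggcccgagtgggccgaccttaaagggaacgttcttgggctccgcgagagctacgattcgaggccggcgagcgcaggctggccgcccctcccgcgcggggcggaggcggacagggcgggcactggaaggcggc
Rcan1 inner start: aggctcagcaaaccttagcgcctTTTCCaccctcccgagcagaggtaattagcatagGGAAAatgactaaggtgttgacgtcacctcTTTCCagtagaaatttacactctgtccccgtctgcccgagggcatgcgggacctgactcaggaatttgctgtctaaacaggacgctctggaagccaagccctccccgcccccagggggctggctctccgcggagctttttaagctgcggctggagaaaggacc

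The outer window held 0 NFAT cores and the inner window 3, which began 227, 193 and 163 bases before the start. The inner window also held 1 cyclic AMP response element (TGACGTCA) and 1 AP-1 element (TGANTCA), searched on both strands and not overlapping the cores, and the outer window had neither. Of 32851 windows of this length in RefSeq, 55.6% held at least 1 NFAT core and 6.39% at least 3, while 1.55% held the cyclic AMP element and 6.75% the AP-1 element. The RefSeq windows covered 7 of the 9 members, and Nfatc1 and Ppp3ca were not searched. Among the others, windows with 3 cores were found for Ppp3cb, Nfatc2 and Nfatc4, while the window of Ppp3r1 held 0. A match is only a match of letters, and the FPKM cannot say from which start Rcan1 was transcribed.

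Transcript levels per length are given here by the role of the genes, whose means fell in this order. The calcineurin subunits were the highest, with 66.8 ± 7.48 FPKM for Ppp3ca (SD, n = 16), 60.4 ± 4.84 for Ppp3cb and 54.1 ± 5.77 for Ppp3r1. The regulators followed, with 44.9 ± 14.4 FPKM for Rcan1 and 19.7 ± 3.00 for Rcan2. The NFAT factors were the lowest, with 9.14 ± 1.54 FPKM for Nfatc1, 6.18 ± 0.580 for Nfatc3, 1.40 ± 0.289 for Nfatc2 and 0.994 ± 0.225 for Nfatc4. Some neighbours in this order overlapped: Ppp3ca exceeded Ppp3cb in 12 of 16 libraries and Ppp3cb exceeded Ppp3r1 in 15. Ppp3r1 exceeded Rcan1 in 14 libraries and Nfatc2 exceeded Nfatc4 in 14. From Rcan1 to Rcan2, Nfatc1, Nfatc3 and Nfatc2, each gene exceeded the next in all 16 libraries. Rcan1 had the largest SD of the 9 genes in relation to its mean.

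**Figure D1:**
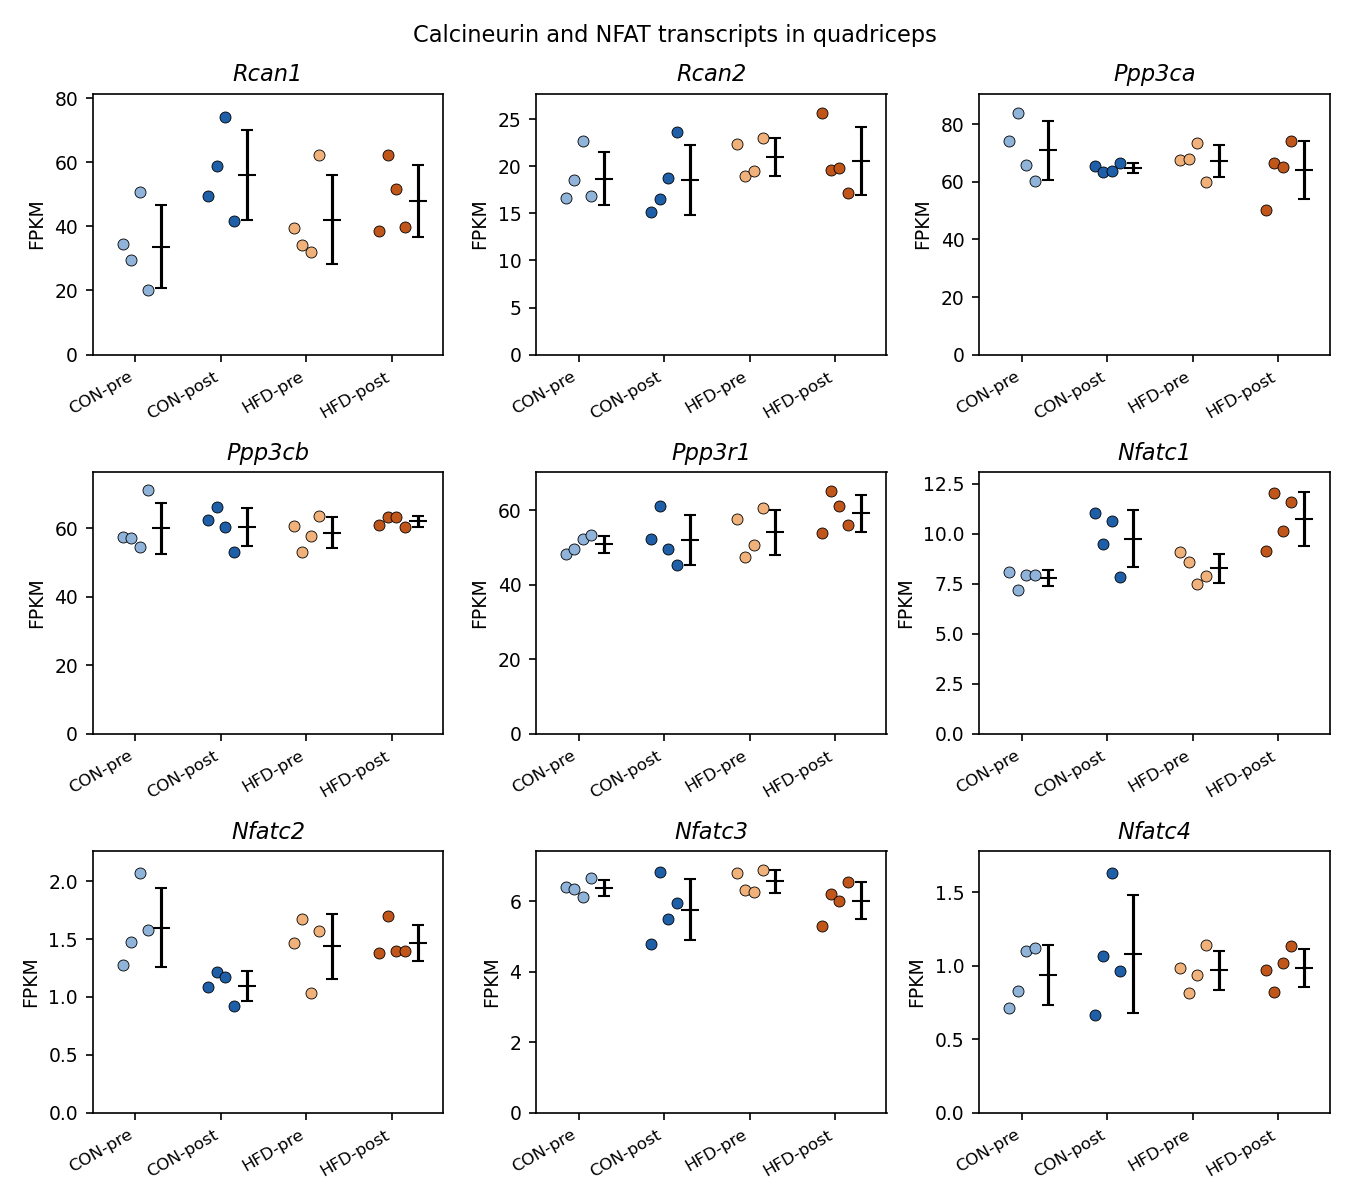
FPKM of the 9 genes (vertical axes, each from 0) in the 4 groups, with 1 point per library and the mean ± SD of 4 libraries beside it. Nfatc1 is higher in most post-exercise libraries, Rcan1 varies widely within each group, and the calcineurin subunits overlap between pre- and post-exercise groups in each diet.

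The first question was whether the exercise test changed these transcripts. Over both diets, Nfatc1, the NFAT factor best known from slow-fibre gene control and from a short isoform that it induces itself, was up-regulated 1.25-fold. It was the 1 member of 9 called a DEG (adjusted p under 0.05), where 3.86% of all tested genes were called. At an unadjusted p under 0.05 there were 2 of 9, Nfatc1 and Rcan1, against 18.5% of all genes. Rcan1 had a larger estimate and a much larger spread and did not pass. None of the 3 subunits of calcineurin passed, and their intervals bound how far they could have moved.

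The catalytic subunits Ppp3ca and Ppp3cb, which carry the phosphatase site, did not pass the test. Over the 16 libraries, Ppp3ca ranged from 50.2 to 83.9 FPKM and Ppp3cb from 53.0 to 71.1 FPKM. The change with exercise over both diets was -0.10 log2 units (95% interval -0.27 to 0.07, adjusted p = 0.536) for Ppp3ca. For Ppp3cb it was 0.05 (-0.08 to 0.18, adjusted p = 0.743). Ppp3r1, the regulatory subunit that binds calcium, ranged from 45.4 to 65.2 FPKM and changed by 0.08 (-0.06 to 0.22, adjusted p = 0.579). With 1 library left out, Ppp3ca ran from -0.14 to -0.05 (without the first HFD-post library), Ppp3cb from 0.02 (without the second HFD-pre or the second CON-post library) to 0.09 (without the fourth CON-pre library) and Ppp3r1 from 0.04 (without the second CON-post library) to 0.11, and quantile scaling gave -0.17, -0.02 and 0.02. The log2 values are differences of log2(FPKM + 0.5), tested with limma.

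The proportions of the subunits overlapped between the groups. The ratio of Ppp3ca to Ppp3cb lay between 0.824 and 1.47, and both extremes were single libraries, of HFD-post and of CON-pre. The ratio of the catalytic transcripts together to Ppp3r1 was 2.58 ± 0.243 in CON-pre, 2.42 ± 0.222 in CON-post, 2.35 ± 0.264 in HFD-pre and 2.14 ± 0.182 in HFD-post (SD, n = 4 each), and the groups overlapped. Across the 16 libraries, Ppp3cb and Ppp3r1 had the highest correlation of any pair of members (r = 0.687) and Rcan2 and Ppp3ca the lowest (r = -0.432). These values describe libraries that differ in group and in depth.

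Rcan1 was the most scattered member. Its FPKM was 34.4, 29.5, 50.7 and 20.0 in the 4 CON-pre libraries and 49.3, 58.7, 74.1 and 41.7 in the 4 CON-post libraries. The groups overlapped through the third CON-pre library, which exceeded 2 of the CON-post libraries. The means were 33.7 ± 12.9 and 56.0 ± 13.9 FPKM (SD, n = 4), a change of 0.77 log2 units (SE 0.261, 95% interval 0.22 to 1.32, fold 1.70). This did not pass the adjusted test (adjusted p = 0.225) or the exact two-sided permutation test (p = 0.0857, where 4 libraries against 4 cannot give less than 0.0286).

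In HFD mice, Rcan1 was 39.5, 34.3, 31.9 and 62.3 FPKM before exercise and 38.5, 62.4, 51.6 and 39.8 FPKM after it. The fourth HFD-pre library was about as high as the highest HFD-post library, and the groups overlapped. The change was 0.22 (-0.34 to 0.77, adjusted p = 0.799), and it ran from 0.08 without the second HFD-post library to 0.42 without the fourth HFD-pre library. It was also lower without the second (0.14) or the third (0.10) HFD-pre library. The difference between the diets in the response of Rcan1 was -0.55 (-1.34 to 0.23), which covers both an equal response and a response in CON alone. With 1 library left out it ran from -0.78 without the third CON-pre library to -0.34 without the fourth. Over both diets the change was 0.49 (SE 0.185, unadjusted p = 0.0170, adjusted p = 0.164).

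The libraries with much Rcan1 were also those with much RNA of certain chaperones. Of all tested genes, Dnaja1, a co-chaperone of HSP70, had the pattern most like that of Rcan1, with r = 0.941 over the 16 libraries and 0.943 after the group means had been removed. Hsp90aa1, the inducible HSP90, followed with r = 0.862 (0.887 within groups). The next were Eng, an endothelial receptor of the TGF-beta family (0.852), Tagln, a smooth-muscle actin-binding protein (0.848), and Tiam2, an exchange factor for Rac (0.840). These genes were picked as the highest of 11256, and the points share the libraries' depth and group.

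**Figure D2:**
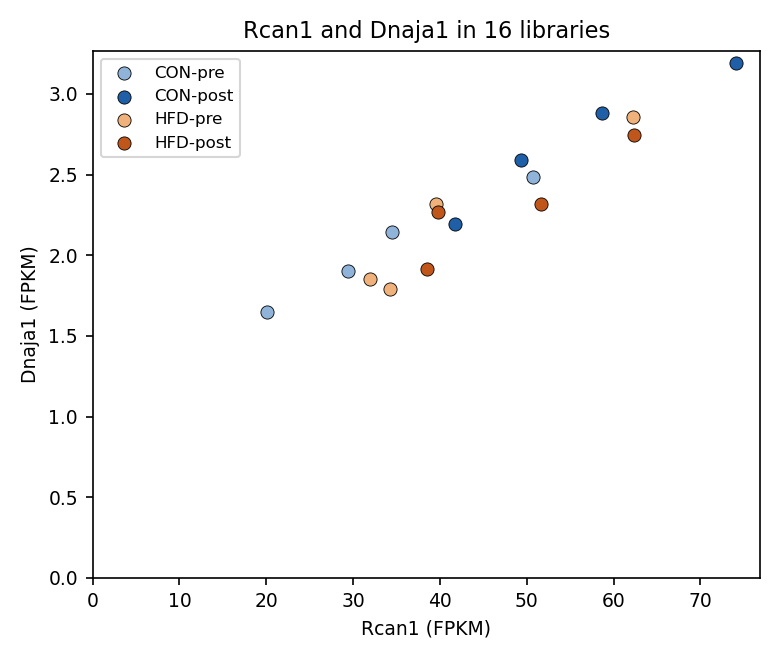
FPKM of Rcan1 (horizontal axis) against FPKM of Dnaja1 (vertical axis) in the 16 libraries, coloured by group. The points of all 4 groups lie along 1 band (r = 0.941 on the log2 scale), from 20.0 FPKM of Rcan1 in the lowest CON-pre library to 74.1 in the highest CON-post library.

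In the pre-exercise groups, the highest libraries were shared. In CON-pre, Dnaja1 was 2.15, 1.90, 2.49 and 1.65 FPKM in the order of the Rcan1 values above, and in HFD-pre it was 2.32, 1.79, 1.85 and 2.86 FPKM. The third CON-pre and the fourth HFD-pre library were thus the highest of their groups for both genes. Hsp90aa1 was also highest in those libraries, at 9.30 FPKM in CON-pre and 9.57 FPKM in HFD-pre. After exercise, the third CON-post and the second HFD-post library were the highest for Rcan1, Dnaja1 and Hsp90aa1. This sharing restates the choice of Dnaja1 and Hsp90aa1 by their correlation with Rcan1 and is not a separate observation.

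Rcan2, the paralogue of Rcan1 and the form known to respond to thyroid hormone, did not share this spread. It ranged from 15.2 to 25.6 FPKM, and its change with exercise over both diets was -0.03 (-0.24 to 0.18, adjusted p = 0.918). The correlation of Rcan1 with Rcan2 over the 16 libraries was 0.157. The ratio of Rcan1 to Rcan2 was 1.77 ± 0.476 in CON-pre and 3.13 ± 0.952 in CON-post (SD, n = 4), and the groups overlapped. In HFD the difference was smaller, with 1.98 ± 0.491 before and 2.40 ± 0.697 after exercise, also with overlap.

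Nfatc1 was the member called over both diets. It was 8.11, 7.18, 7.94 and 7.94 FPKM in CON-pre and 11.0, 9.50, 10.6 and 7.86 FPKM in CON-post. In CON, 3 of 4 post-exercise libraries lay above every pre-exercise library and the fourth lay within their range. In HFD-pre it was 9.12, 8.60, 7.48 and 7.89 FPKM, and in HFD-post 9.16, 12.1, 10.2 and 11.6 FPKM. The HFD groups did not overlap, although the lowest post-exercise library was close to the highest pre-exercise one.

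The change of Nfatc1 was 0.30 (0.07 to 0.52) in CON and 0.35 (0.13 to 0.58) in HFD, and neither passed by itself. The adjusted p was 0.261 in CON and 0.186 in HFD, with exact permutation p = 0.114 and 0.0286. In HFD, 4.72% of tested genes were higher after exercise with no overlap. Over both diets the change was 0.33 (SE 0.075, 95% interval 0.17 to 0.49, adjusted p = 0.0232). The difference in response between the diets was 0.06 (-0.26 to 0.38). The call was lost without the second CON-pre library (adjusted p = 0.0524), without the second HFD-post library (0.0504) and with the replicate number as a block (0.0511).

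Markers of other cell types had higher sums in some of the post-exercise groups. The 6 smooth-muscle and pericyte markers summed to between 73.6 and 81.0 FPKM in CON-pre and between 83.4 and 101.5 FPKM in CON-post, without overlap. In HFD they summed to between 75.9 and 92.8 FPKM before and between 85.7 and 100.5 FPKM after exercise, which overlapped. The sums of the 7 endothelial markers overlapped in both diets, with 46.7 to 58.3 FPKM in CON-pre, 54.8 to 71.5 in CON-post, 51.9 to 62.9 in HFD-pre and 59.0 to 65.0 in HFD-post. Over both diets, 5 of 6 and 5 of 7 of these markers had estimates above 0, and 1 in each list was a DEG, where 6047 of all 11256 genes were above 0 and 3.86% were called. At an unadjusted p under 0.05 there were 3 of 6 and 3 of 7, all higher, against 18.5% of all genes. Tagln, which was among the genes most like Rcan1, is in the first list. The 7 adipocyte markers summed to between 372 and 476 FPKM in CON-pre, 375 and 563 in CON-post, 322 and 415 in HFD-pre and 339 and 659 in HFD-post, which overlapped in both diets. Of these, 7 of 7 had estimates above 0 over both diets, 0 were DEG with limma and 2 had an unadjusted p under 0.05 (18.5% of all genes). The part of these cells in the values of Nfatc1 and Rcan1 was not tested.

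**Figure D3:**
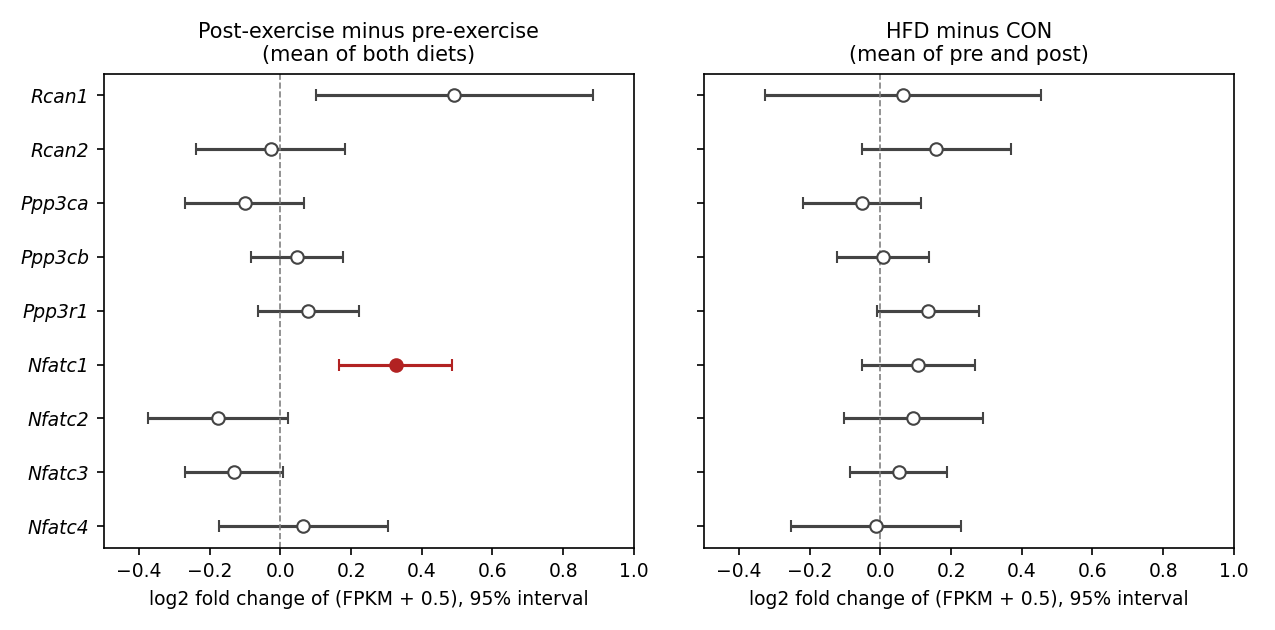
Change of each of the 9 genes in log2(FPKM + 0.5) with its 95% interval (horizontal axes), for post-exercise minus pre-exercise over both diets (left) and HFD minus CON over both exercise states (right). The filled point, Nfatc1 with exercise at 0.33, is the only member with an adjusted p under 0.05, and every diet interval includes 0.

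None of the other NFAT factors passed the test. Nfatc3, known from early myogenesis, was 6.41, 6.34, 6.12 and 6.65 FPKM in CON-pre and 4.79, 6.83, 5.50 and 5.94 FPKM in CON-post. Of these, 3 of the CON-post libraries lay below every CON-pre library and 1 lay above all of them. In HFD it was 6.81, 6.31, 6.27 and 6.88 FPKM before and 5.30, 6.21, 6.01 and 6.55 FPKM after exercise. Its change over both diets was -0.13 (-0.27 to 0.01, adjusted p = 0.294). Nfatc4, the lowest of the members, ranged from 0.666 to 1.63 FPKM and changed by 0.06 (-0.18 to 0.31, adjusted p = 0.809).

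Nfatc2, an NFAT factor known from myoblast fusion and fibre growth, had lower values after exercise in CON. It was 1.27, 1.48, 2.07 and 1.58 FPKM in CON-pre and 1.08, 1.22, 1.17 and 0.922 FPKM in CON-post. The groups did not overlap, as was the case for 2.53% of tested genes in this direction. The change was -0.39 (SE 0.131, -0.66 to -0.11, exact permutation p = 0.0286, the smallest possible) and did not pass the adjusted test (adjusted p = 0.226).

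In HFD, Nfatc2 was 1.47, 1.67, 1.04 and 1.57 FPKM before and 1.38, 1.70, 1.39 and 1.40 FPKM after exercise, which overlapped. The change there was 0.03 (-0.25 to 0.31). The test of the difference between the diets gave 0.42 (0.02 to 0.81, unadjusted p = 0.0401, adjusted p = 1.00). With limma, 0% of tested genes passed the adjusted test of this difference, 3.16% had an unadjusted p under 0.05, and Nfatc2 was the 1 member of 9 among them. At levels as low as those of Nfatc2, the precision of a single value is unknown without read counts.

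The same values can be read as the makeup of the NFAT transcripts. Nfatc1 made up 46.6 ± 1.70% of the summed FPKM of the 4 factors in CON-pre, 47.9 ± 2.08% in HFD-pre, 55.0 ± 5.84% in CON-post and 55.8 ± 1.63% in HFD-post (SD, n = 4 each). The highest share before exercise was 49.6% and the lowest after exercise 50.1%, so all 8 exercised libraries lay above all 8 others. This share restates the single values above, was formed after they had been seen and was not tested. The summed FPKM of the 4 factors, from 15.7 to 20.8, overlapped between all groups.

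The correlation of Nfatc1 with Nfatc2 over the 16 libraries was -0.031, and with Nfatc3 it was -0.345.

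**Figure D4:**
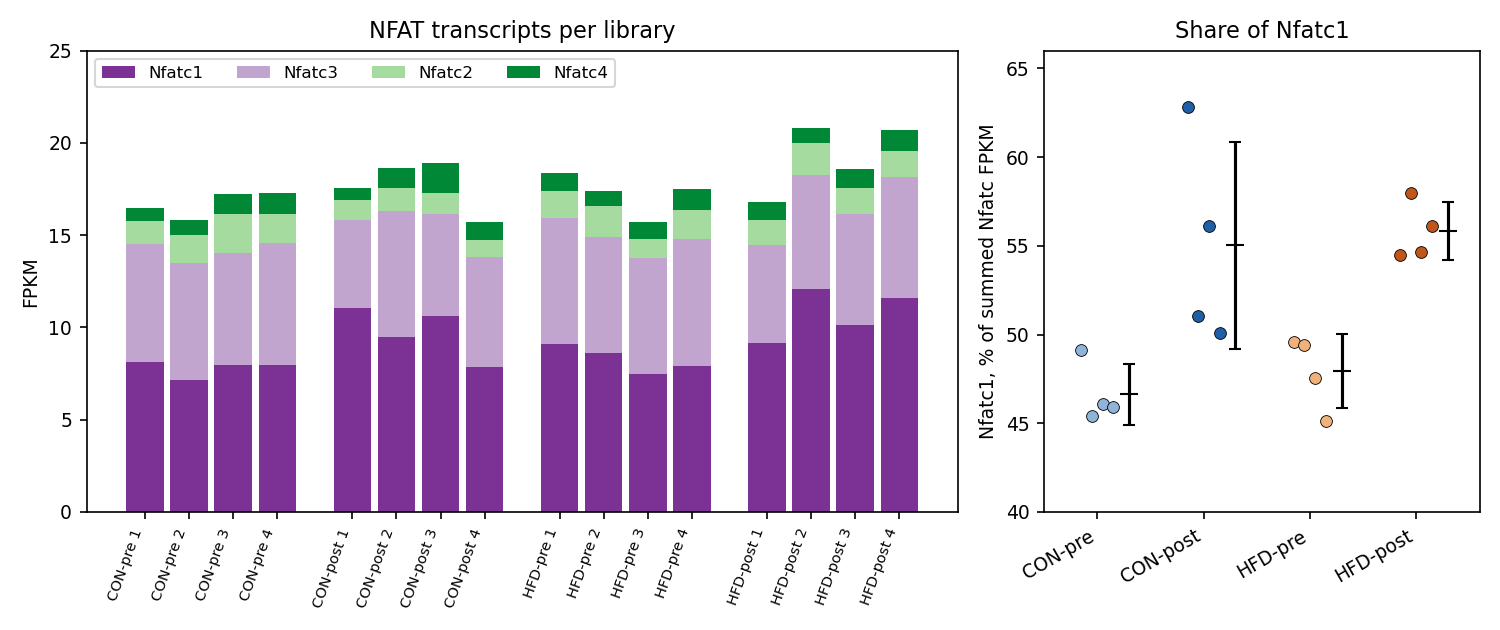
Left, FPKM of the 4 NFAT factors stacked for each of the 16 libraries; right, Nfatc1 as a percentage of their sum, with 1 point per library and the mean ± SD of 4 libraries (the right axis starts at 40%). All 8 post-exercise libraries lie at 50.1% or above and all 8 pre-exercise libraries at 49.6% or below.

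The genes whose pattern was most like that of Nfatc1 were Phldb1, a cortical pleckstrin-homology protein (r = 0.896 over the 16 libraries), Ankrd33b (0.866) and Slc38a2, a transporter of neutral amino acids (0.849). After removal of the group means, the values were 0.731, 0.936 and 0.742. For the subunits, the most alike were Arl3 for Ppp3ca (0.920) and Csgalnact2 for Ppp3r1 (0.871). Calm3, which encodes the calmodulin that activates calcineurin, was the third for Ppp3ca (0.874). For the remaining members the highest were Vopp1 and Oxnad1 for Rcan2 (both 0.785), Isg20 for Nfatc2 (0.846), Ralgapb for Nfatc3 (0.880) and Ndufa6 for Nfatc4 (0.774).

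Diet was the next question. No member was a DEG between HFD and CON: 0 of 9 passed with limma over both exercise states, where 0.959% of tested genes did, and 0 of 9 had an unadjusted p under 0.05 (10.4% of all genes). The nearest was Ppp3r1, with 50.9 ± 2.34 FPKM in CON-pre, 54.2 ± 6.07 in HFD-pre, 52.2 ± 6.73 in CON-post and 59.2 ± 5.06 in HFD-post (SD, n = 4). Its difference, HFD minus CON, was 0.13 (-0.01 to 0.28, unadjusted p = 0.0641, adjusted p = 0.515). The intervals of the other 8 all included 0, and the widest, that of Rcan1, ran from -0.33 to 0.46.

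Before exercise, 0 of 9 members differed between the diets with limma (0.346% of tested genes did), with 0 of 9 at an unadjusted p under 0.05 (8.25% of all genes). In resting muscle, HFD minus CON was 0.34 (-0.21 to 0.89) for Rcan1 and 0.08 (-0.15 to 0.31) for Nfatc1. The value of Rcan1 was 0.12 without the fourth CON-pre library, 0.14 without the fourth HFD-pre library and 0.56 without the third CON-pre library. After exercise, 0 of 9 passed (0.151% of tested genes did) and 1 of 9, Nfatc2, had an unadjusted p under 0.05 (6.29% of all genes). Nfatc2 was higher in every HFD-post library than in every CON-post library, a difference of 0.30 (0.02 to 0.58, unadjusted p = 0.0363, adjusted p = 0.738, exact permutation p = 0.0286). Of all tested genes, 1.88% were higher in HFD-post without overlap. This comparison and the exercise comparison in CON share the CON-post libraries.

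Within single diets, 0 of 9 members passed the adjusted test for exercise with limma, where 1.11% of tested genes did in CON and 0.542% in HFD. At an unadjusted p under 0.05 there were 3 of 9 members in CON (Rcan1, Nfatc1 and Nfatc2, against 11.1% of all genes) and 1 of 9 in HFD (Nfatc1, against 11.7%). Over both diets the median change of the 9 members was 0.05, with 5 higher and 4 lower, and that of all tested genes was 0.01. With diet the median was 0.06, with 7 higher and 2 lower, against -0.02 for all tested genes.

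The other genes of the pathway gave single calls in 3 of 5 lists, none in the slow-fibre list and 4 in the activity-responsive list. With 3.86% of all tested genes called, a single call in a list of 17 or 18 genes is near the background. Among further calcineurin subunits, inhibitors, scaffolds and calcium inputs, 17 of 19 were tested; over both diets 0 were up-regulated and 1 was down-regulated with exercise. This was Myoz3, a calsarcin that tethers calcineurin at the Z-disc of fast fibres. It was 77.9, 65.5, 73.0 and 70.9 FPKM in CON-pre and 55.3, 67.0, 65.9 and 59.3 in CON-post, so the groups overlapped. In HFD-pre it was 75.2, 73.9, 70.8 and 74.2 FPKM and in HFD-post 58.3, 66.4, 61.5 and 60.1, without overlap, as for 2.10% of tested genes in this direction. Myoz3 fell by 0.23 over both diets (-0.23, SE 0.051, adjusted p = 0.0158).

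Of the same list, Lmcd1, a LIM-domain protein that acts with calcineurin in heart muscle, had an estimate of 0.44 (adjusted p = 0.0891) and did not pass. With array weights Lmcd1 did pass (0.49, adjusted p = 0.0425). The median of the 17 was -0.03, with 8 higher and 9 lower. With diet 0 of 17 passed, where 0.959% of all tested genes did. The smallest p belonged to Myoz1 (-0.11), Calm3 (-0.11) and Calm2 (-0.12), with adjusted p of 0.432 for Myoz1 and more for the others. With 1 library left out, Calm3 ran from -0.14 to -0.06 and Calm2 from -0.16 to -0.07.

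Among the kinases, exporter and partners of NFAT, 18 of 18 were tested, and 1 was up-regulated over both diets. This was Nfat5, the osmotic-stress member of the family, which lacks the calcineurin-binding region of the other NFAT proteins. It was 2.55, 3.26, 2.65 and 2.55 FPKM in CON-pre and 3.39, 3.62, 4.19 and 3.11 in CON-post. In HFD-pre it was 2.41, 2.30, 2.52 and 3.07 FPKM and in HFD-post 2.98, 3.44, 2.79 and 3.41. The pre- and post-exercise groups overlapped in each diet. Its change was 0.29 (SE 0.077, adjusted p = 0.0470), and the call held in 12 of 27 alternative analyses. The NFAT kinases Dyrk1a (0.14, adjusted p = 0.0979) and Csnk1d (0.13, adjusted p = 0.204) did not pass. With diet 0 of 18 passed (0.959% of all tested genes did), the nearest being Dyrk1b (-0.15, adjusted p = 0.369), Gsk3a (0.10) and Homer3 (-0.17).

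Of 9 other factors and substrates of calcineurin, all tested, 1 was down-regulated with exercise. Mef2c, a MADS-box factor that works with NFAT on muscle genes, was 105.5, 104.1, 101.3 and 98.8 FPKM in CON-pre and 77.0, 90.1, 87.2 and 86.8 in CON-post. In HFD it was 103.4, 96.1, 97.9 and 99.5 FPKM before and 92.9, 94.6, 82.0 and 93.7 after exercise. All 8 exercised libraries lay below all 8 others, as was the case for 0.151% of tested genes. Mef2c fell by 0.20 (-0.20, SE 0.044, adjusted p = 0.0199), and the call was lost without the first CON-pre library (adjusted p = 0.0526). The CREB coactivators Crtc3 (-0.22, adjusted p = 0.111) and Crtc1 (-0.21, adjusted p = 0.183) did not pass. Crtc3 did pass with upper-quartile scaling (adjusted p = 0.0458) and without the fourth HFD-post library (adjusted p = 0.0410). With diet 0 of 9 passed, where 0.959% of all tested genes did. The smallest p belonged to Mef2a (-0.13, adjusted p = 0.381), Mef2d (0.10) and Crtc3 (-0.05). With 1 library left out, Crtc3 ran from -0.10 to -0.03.

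The slow-fibre genes of the calcineurin programme (Myh7, Myl2, Myl3, Tnni1, Tnnc1, Tnnt1, Tpm3, Atp2a2 and Mb) were all tested, and 0 of 9 were DEG with exercise or with diet by limma. Of all tested genes, 3.86% were called for exercise over both diets and 0.959% for diet over both exercise states. With exercise over both diets, 9 of 9 estimates were above 0, with a median of 0.17 and 0 at an unadjusted p under 0.05, and 6047 of all 11256 genes were above 0. The smallest p belonged to Mb, myoglobin (0.18, adjusted p = 0.437), Tpm3, a slow tropomyosin (0.17), and Atp2a2, the slow calcium pump (0.16). With 1 library left out, the estimate of Mb ran from 0.10 (without the first HFD-post library) to 0.23, that of Tpm3 from 0.06 to 0.29 and that of Atp2a2 from 0.01 to 0.29, the lowest for Atp2a2 without the first CON-pre library. With diet, 8 of 9 estimates were below 0, with a median of -0.41, and 6370 of all genes were below 0. The 7 fibre markers had estimates below 0 in 6 of 7 cases. Their sum was 54150 to 57680 FPKM in CON-pre and 46420 to 51430 FPKM in HFD-pre, without overlap. After exercise it was 47290 to 55100 FPKM in CON-post and 42370 to 50240 FPKM in HFD-post, with overlap, and their part in the values of the slow-fibre genes was not tested. Among the slow-fibre genes the exception was Mb (0.35, adjusted p = 0.245), which was also the only 1 of them at an unadjusted p under 0.05. Tpm3 (-0.41, adjusted p = 0.569) and Tnnc1 (-0.57, adjusted p = 0.630), a slow troponin, came next. The standard errors of these genes reached 0.399 (Tnni1), and the smallest was 0.118 (Mb). That of Mb was small next to its diet estimate of 0.35.

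Of 13 activity-responsive genes with reported control by NFAT or calcineurin, 7 were tested. Of these, 4 were up-regulated in the mean of both diets, where 3.86% of all tested genes were called. Ptgs2, Il6, Egr2, Egr3, Gdf15 and Myf5 were below the filter. The list was chosen with earlier results of these data known, and the paper reports Egr1 as induced by exercise, so the count is no separate support. Ppargc1a, the coactivator PGC-1alpha, rose by 2.04 log2 units (SE 0.132, adjusted p = 2.63e-07). Hk2, a hexokinase of muscle, rose by 1.10 (adjusted p = 1.06e-06). The immediate early factors Egr1 (1.39, adjusted p = 0.00387) and Fos (1.07, adjusted p = 0.0167) were also higher in the mean of both diets. Fos changed by 1.79 in CON and by 0.36 in HFD (SE 0.332, adjusted p = 0.722). The difference between the diets in its response was -1.43 (SE 0.469, unadjusted p = 0.00763 with limma) and did not pass the adjusted test, as for all tested genes. In CON alone, 4 passed (1.11% of tested genes did), of which Egr1 passed in only 13 of 28 alternative analyses. In HFD alone, 2 passed, Ppargc1a and Hk2 (0.542% of tested genes did). With diet 0 of 7 passed, where 0.959% of all tested genes did. The nearest were Ppargc1a (-0.39, adjusted p = 0.234), Egr1 (-0.62, adjusted p = 0.361) and Fos (-0.54, adjusted p = 0.426).

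**Figure D5:**
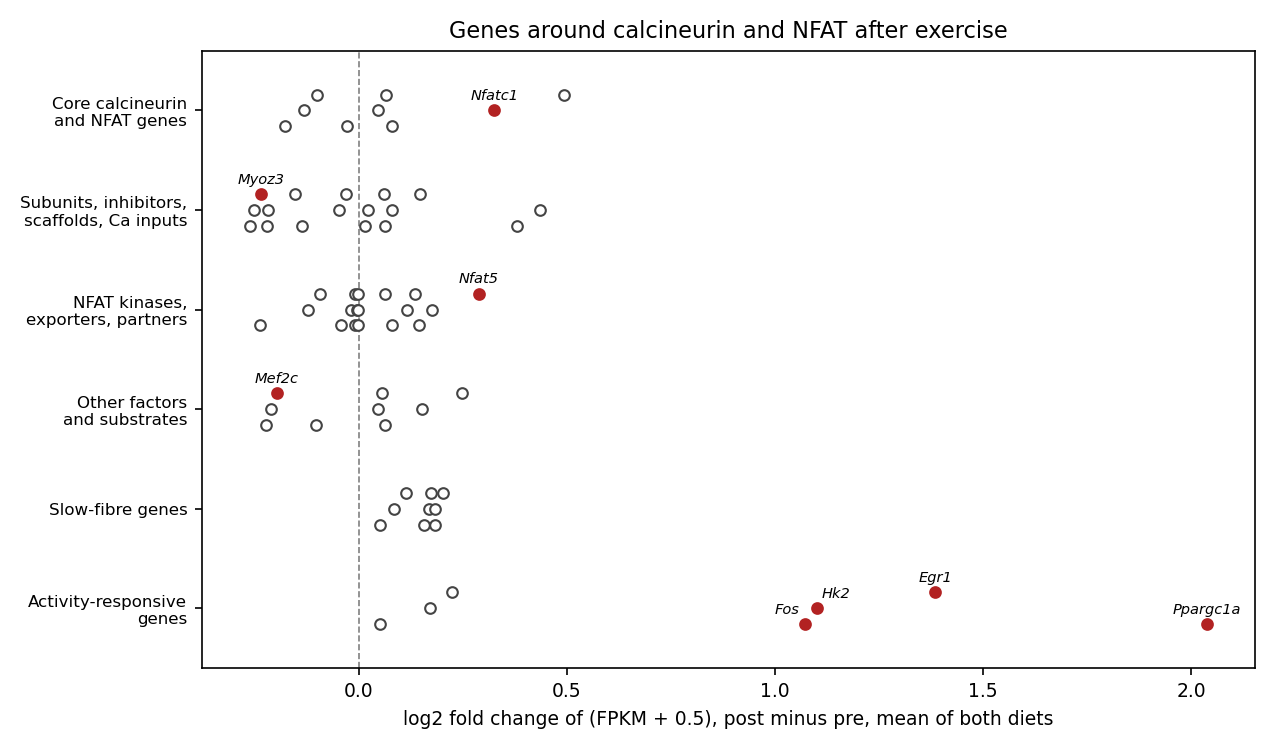
Change with exercise over both diets in log2(FPKM + 0.5) (horizontal axis) for every tested gene of the core set and of the 5 further lists (vertical axis), 1 point per gene. Filled, named points have an adjusted p under 0.05: 1 in each of the first 4 sets, 0 of 9 slow-fibre genes and 4 of 7 activity-responsive genes.

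In the annotation of RefSeq GRCm38.p6, the members lie on separate chromosomes except for Ppp3cb and Nfatc4. Ppp3ca is at chr3:136669714-136937727, Ppp3cb at chr14:20499364-20546573 and Ppp3r1 at chr11:17159298-17200380. Rcan1 is at chr16:92391951-92466169 and Rcan2 at chr17:43801352-44039516. Nfatc1 is at chr18:80606205-80713071, Nfatc2 at chr2:168476410-168601657, Nfatc3 at chr8:106058818-106130537 and Nfatc4 at chr14:55824795-55833943. Each FPKM covers a whole gene, so no exon, intron or isoform was measured by itself.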

How the data were processed

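Quadriceps RNA of 16 mice in 4 groups of 4 was analysed from a table of FPKM that the authors deposited. Per the methods, stranded mRNA libraries were sequenced, checked with FastQC, aligned with TopHat and quantified with Cufflinks; the versions, the annotation and the strand setting are not given in the sources used here. These FPKM were scaled by the authors for the length of transcripts and the size of each library and carry no depth, so no count model or counting interval was used. The table held 24487 entries: 27 named by a date were left out (0.0771% of FPKM) and 260 symbols in several entries were summed. No sample column was set aside (0 left out). The methods name mm9, but the loci of the study's gene table overlapped genes of GRCm38, so positions come from RefSeq GRCm38.p6.

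Genes averaging 0.5 FPKM or more were tested with limma 3.58.1 (R 4.3.3). The 4 groups were fitted together on log2(FPKM + 0.5), using limma's mean-variance trend, and 7 contrasts were drawn, with Benjamini-Hochberg adjustment over 11256 genes. A fold on this scale understates the change of low genes. Single genes were also compared with exact two-sided permutation tests. The code was tested on simulated data. Replicates are separate mice. Promoter windows were searched with Python 3.11.15.

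All members are named, and of the other lists the DEG and the 3 genes with the smallest p for pooled exercise and for pooled diet. For likeness, the 5 genes with the highest correlation with Rcan1 and the highest of 3 for each other member were taken. The values of 2 of these genes are not reported here. The alternatives were other pseudocounts (0.1 and 1), filters (none, or at least 1 FPKM), scalings (upper-quartile, median-of-ratios, quantile), only the groups compared, no trend, array weights, a replicate block, symbols in several entries left out, a threshold of 0.1 and leaving out each library. The members and lists were chosen with earlier results of these data known.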

Additional observations from a re-analysis of the deposited data

Results flagged for a closer look

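Of 36 sets of 4 libraries (9 members in 4 groups), 2 held a library far from the other 3 by Dixon's criterion, which chance gives in about 1 set in 20. Ppp3cb was 71.1 FPKM in the fourth CON-pre library, against 54.6 to 57.4 FPKM in the other CON-pre libraries, and this gap was 0.83 of the range of the group. Nfatc2 was 1.70 FPKM in the second HFD-post library, against 1.38 to 1.40 FPKM in the other HFD-post libraries, a gap of 0.948 of the range. The HFD-post and CON-post values of Nfatc2 did not overlap with or without that library, since the lowest HFD-post value was 1.38 FPKM and the highest CON-post value 1.22 FPKM.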

How the results depend on the processing

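The call of Nfatc1 with exercise over both diets held in 24 of 27 alternatives (adjusted p from 0.00589 to 0.0524). The count of members called was 0 with the replicate number as a block, and from 0 to 1 with 1 library left out; it was 0 without the second CON-pre or the second HFD-post library. After the group means had been removed, libraries of the same number had a median correlation of -0.022 (24 pairs, -0.22 to 0.213, 5 of them over 0.1). For pairs with other numbers the median was 0.016. The labels do not say what the numbers stand for, and these correlations cannot decide whether they mark a pairing or a batch. Estimates near 0 changed sign: Nfatc4 with diet was 0.002 by median-of-ratios and 0.016 by quantile scaling, Nfatc2 with exercise in HFD -0.012 and Ppp3cb with exercise -0.024 by quantile scaling, and Rcan1 with diet -0.014 with array weights. With 1 library left out, the ranges were -0.024 to 0.048 (Ppp3cb), -0.08 to 0.065 (Nfatc4), -0.046 to 0.174 (Rcan1) and -0.089 to 0.004 (Ppp3ca) with diet. They were -0.088 to 0.02 (Rcan2) and -0.012 to 0.133 (Nfatc4) with exercise, -0.077 to 0.09 for Nfatc2 with exercise in HFD, and -0.038 to 0.128 for the difference in response of Nfatc1. The cause was not tested. Over all genes, the count of DEG was 37 (from 61) without a filter for exercise in HFD, 81 (from 125) for exercise in CON and 2 (from 17) for HFD-post against CON-post with only the groups compared, and 63 (from 39) for HFD-pre against CON-pre with array weights. With 1 library left out it fell as low as 246 (from 435) for exercise over both diets, 21 (from 61) for exercise in HFD, 21 (from 39) for HFD-pre against CON-pre and 5 (from 17) for HFD-post against CON-post, and was 0 or 1 for the difference in response. The scalings moved the median of all genes by at most 0.050 log2 units. Depth is unknown, which bears most on the low genes Nfatc2 and Nfatc4.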
